A study of Mus musculus with 3 samples.

Results

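The DNA replication and nucleotide supply genes are 36 genes whose products license origins, unwind DNA, copy it, join the copied pieces, make the DNA precursors and pack new DNA into chromatin. They were chosen by gene symbol from the probe set annotation, with no threshold on their values. The choice was made with earlier results of these data known. Of the 36, 33 had at least 1 probe set that names no other gene, in all 37 probe sets, out of 18820 genes measured that way. Gins2, Rfc4 and Tyms were named only on probe sets shared with another gene and were not used here. The values come from RAW264.7 cells, an established mouse macrophage line that grows continuously, exposed for 6 hours to 500 µM oleate, elaidate or palmitate, each coupled to fatty acid-free bovine serum albumin at a ratio of 2 to 1. Oleate is a cis monounsaturated fatty acid, elaidate is its trans isomer and palmitate is a shorter saturated fatty acid. All cultures were grown in the same serum-containing medium and all received albumin, and the comparison asks how cells given a trans fatty acid differ from cells given a cis or a saturated one. Each fatty acid has 1 array, so no difference below has a replicate check, an error or a p-value, and without an untreated array each difference is between fatty acids only.

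Replication begins when the origin recognition complex, with CDC6 and CDT1, loads the MCM2-7 helicase onto DNA in G1, a step that geminin blocks later in the cycle. CDC45 and the GINS complex join MCM2-7 to form the active helicase, primase and the polymerases copy the strands, and the sliding clamp PCNA, placed by replication factor C, holds the polymerases on DNA. Ribonucleotide reductase and thymidine kinase supply the precursors, and many of these genes are transcribed under E2F factors as cells enter S phase. In dividing macrophage lines these genes are known as markers of cells in or near S phase.

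The arrays' median log2 values lay between 3.57 and 3.61 over all probe sets. All 10 macrophage markers looked for, among them Cd68, Csf1r and Lyz2, were past the filter on low values, and none of the T cell or B cell markers measured were. Of the markers of fibroblasts, adipocytes and neutrophils, 1 of each list was past it. That filter keeps the 9410 genes with a mean log2 value of at least 4.14, the middle of all genes measured, and 32 of the 33 measured members were among them. The exception was Gmnn, which encodes geminin. The 10 reference genes had a median difference of -0.03 between palmitate and oleate, and 0.00 between elaidate and oleate.

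Most members were lower on the palmitate array than on the oleate array. Of the 32, 29 were lower, 3 were equal and none was higher, while 36.8% of all 9410 genes were lower and 30.9% higher. Since the members were chosen with earlier results known, the shares over all genes give a scale and no test. The median log2 difference of the members was -0.35, or 1.27-fold, beside a median of 0 over all genes. At the 1.5-fold limit, 8 members were lower, with 4.73% of all genes as background, and at the 2-fold limit 1 member, Rrm2, was lower, with a background of 1.22%. No member was 1.5-fold higher, against 4.57% of all genes. With the arrays centred on the reference genes 28 were lower, Cdc45, Cdt1 and Pola1 stood at 0.02 and Prim2 at 0.004.

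The trans isomer gave values close to those of oleate. Of the 32 members, 16 were lower on the elaidate array, 8 higher and 8 equal, beside 24.3% of all genes lower, 31.5% higher and 44.1% equal. Their median difference was -0.0030, and no member passed 1.5-fold in either direction, which 0.0638% of all genes did downward and 0.723% upward. None passed 2-fold either, against 0.106% of all genes upward and 0% downward. The count of lower members was 26 with the arrays centred on the reference genes, since that scaling moves the elaidate array down by 0.02, which takes the 8 ties, Pole2 and Rrm1 below 0. The members ranged from -0.27 for Mcm7 to 0.16 for Prim1, beside an SD of 0.13 over all genes. Of all genes, 1.62% were at or below Mcm7 and 91.8% at or below Prim1. The dimmer Tk1 probe set stood at -0.34 and the brighter at 0. Averaged over probe sets, each member's values for the cis and trans fatty acids thus lay within 0.27 of each other on the log2 scale. Dose and time were the same, and no interval can be set on that difference.

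Palmitate against elaidate shares the palmitate array with the first comparison. Of the 32 members 28 were lower on the palmitate array, 3 were equal and 1, Cdt1, was higher, beside 37.9% of all genes lower. With the arrays centred on the reference genes 26 were lower. The 3 ties, Pold1 and Prim2 then stood above 0, by at most 0.041. The median was -0.34. At least 1.5-fold lower were 6 members, with a background of 4.43%, and Rrm2 alone was 2-fold lower, with a background of 0.871%. No member was higher by either limit, against 3.18% of all genes at 1.5-fold and 0.978% at 2-fold. Palmitate held the lowest value of the 3 arrays, without a tie, for 28 members and for 32.7% of all genes. Among the 28, oleate was highest for 14, elaidate for 8, and both were equal for 6. Over all genes, those same orders held for 13.7%, 9.63% and 9.36%. Exact ties are common in these deposited values: 27.5% of all genes, and 2 members, had the same value on all 3 arrays, so a tie shows only that the summarised values coincide.

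**Figure D1:**
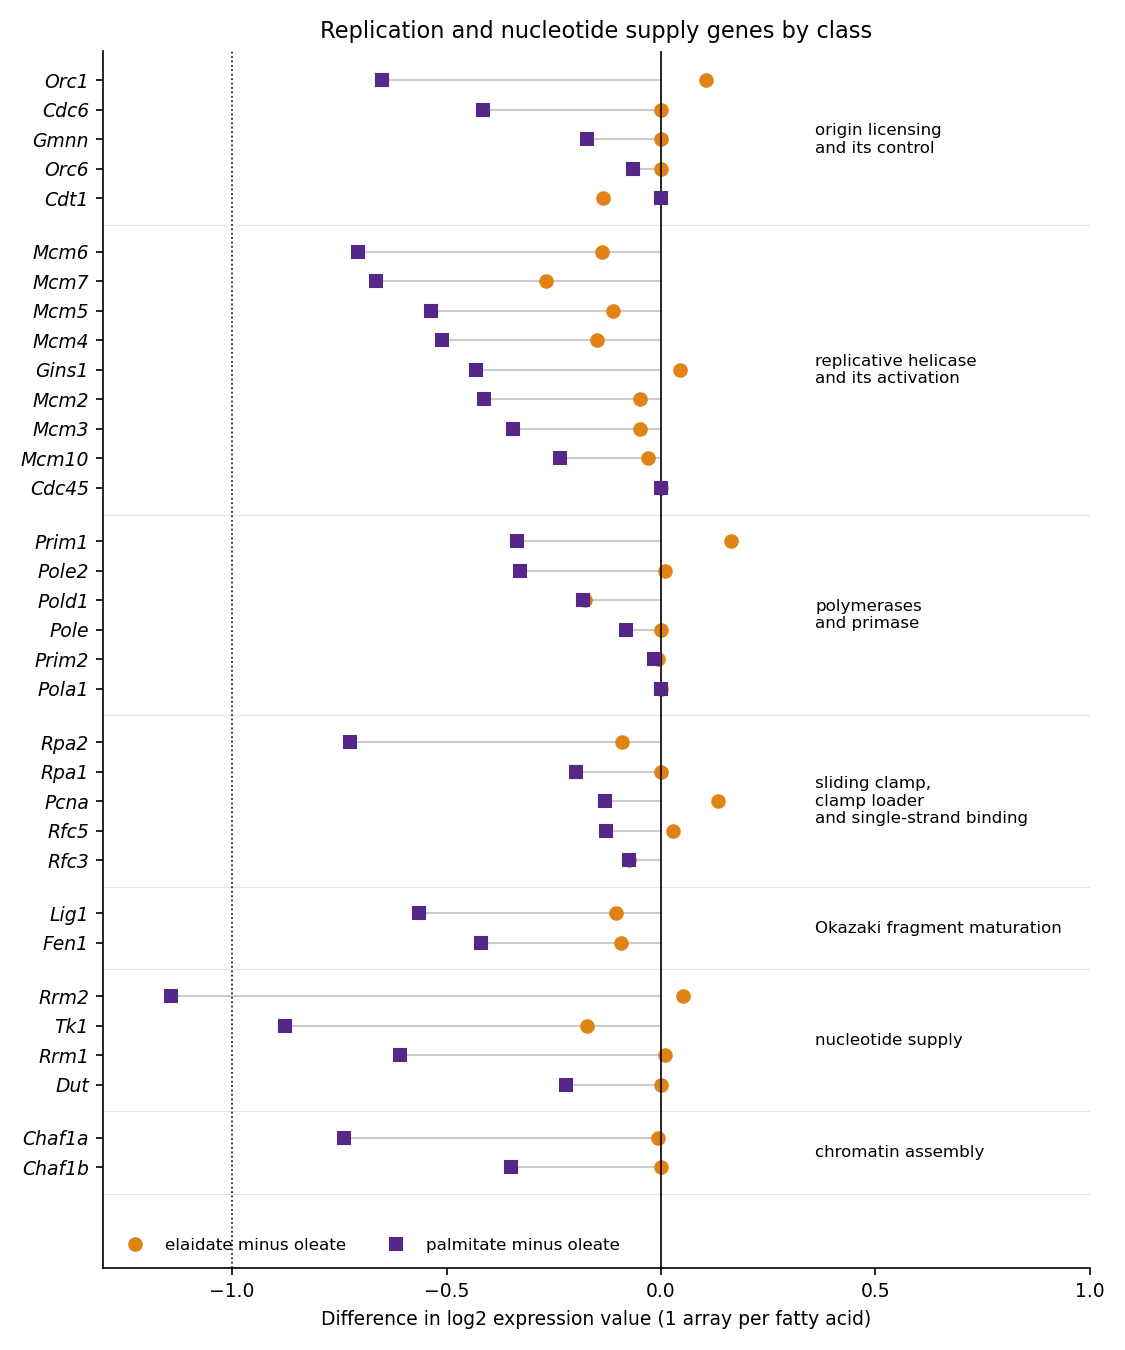
Difference in log2 expression value from the oleate array for the 33 measured members, grouped by class, with elaidate as circles and palmitate as squares; each point is a difference between 1 array and 1 other, and the dotted line marks a 2-fold lower value. Palmitate squares lie at or left of 0 for every member (4 lie just right of it, by at most 0.02, with arrays centred on the reference genes), Rrm2 alone lies past the dotted line, and elaidate circles lie between -0.27 and 0.16.

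**Figure D2:**
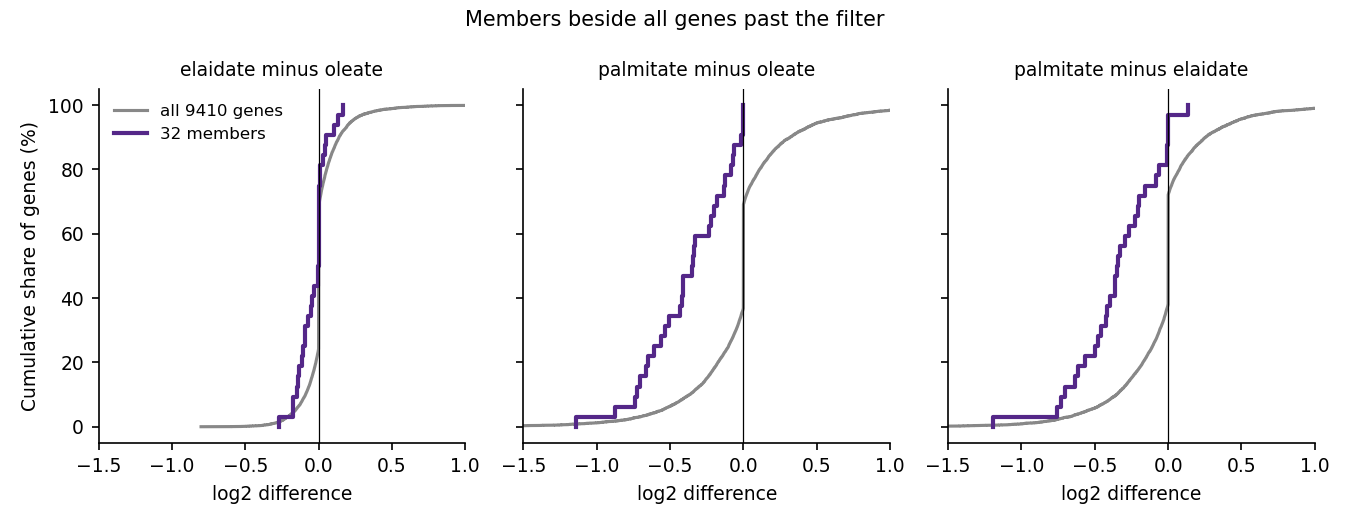
Cumulative share of genes (%) against the log2 difference in each of the 3 comparisons, for the 32 members past the filter and for all 9410 genes, with the axis ending at -1.5 and 1. From its lowest member upward, the member curve lies left of the curve for all genes in both comparisons with palmitate. The medians there are -0.35 and -0.34 beside 0. Below that member, Rrm2 at -1.14 and -1.19, only the curve for all genes has risen.

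Promoter stretches of members are shown because E2F factors are known to act at promoters of this group. Whether these factors have a part in the lower values on the palmitate array was not tested. RefSeq promoter windows (GRCm38.p6, from 250 bases before to 50 after a gene's start) were at hand for 30 of the 36 members, in 34 windows; Gmnn, Mcm4, Gins1, Gins2, Pole and Prim2 had none in the table used. The E2F-type letters searched on both strands were TTTCCCGC, TTTGGCGC, TTTCGCGC and TTTGCCGC, which can overlap one another on opposite strands. At least 1 of them was in 12 of the 34 member windows (35.3%), which belong to 12 genes, and in 2.26% of all 32851 windows of the same length. CCAAT was in 55.9% of member windows and 37.4% of all, GGGCGG in 70.6% and 35.7%, and TTTGAA in 8.82% and 17.9%. The set of all windows was not matched to the members for base composition or expression, so these shares are a description only. The stretches below run 5′ to 3′ along the gene's own strand, and capitals mark E2F-type letters, except in Rrm2, where they mark CCAAT. Among the helicase genes Mcm6 had the most negative palmitate minus oleate difference. Mcm7, Orc1 and Cdc6 were also lower on palmitate than on oleate, and Pola1 was equal on all arrays. Rrm2 had the most negative palmitate minus oleate difference of all members and none of the E2F-type letters in its window.
Mcm6, chr1:128359736-128359835, minus strand: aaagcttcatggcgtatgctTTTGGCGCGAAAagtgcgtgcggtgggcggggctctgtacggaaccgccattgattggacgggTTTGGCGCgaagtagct
Mcm7, chr5:138172014-138172073, minus strand: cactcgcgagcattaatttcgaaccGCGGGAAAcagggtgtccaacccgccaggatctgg
Orc1, chr4:108579384-108579453, plus strand: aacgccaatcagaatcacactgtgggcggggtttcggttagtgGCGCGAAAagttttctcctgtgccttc
Cdc6, chr11:98907981-98908050, plus strand: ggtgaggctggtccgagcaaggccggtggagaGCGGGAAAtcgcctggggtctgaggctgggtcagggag
Pola1, chrX:93632256-93632325, minus strand: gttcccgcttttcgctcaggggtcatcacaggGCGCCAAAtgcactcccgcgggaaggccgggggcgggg
Rrm2, chr12:24708154-24708223, plus strand: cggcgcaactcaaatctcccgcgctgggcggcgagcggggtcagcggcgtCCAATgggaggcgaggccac

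The longer capital run in Mcm6 is a pair of overlapping matches on opposite strands. For palmitate minus oleate, the 12 members with E2F-type letters had a median of -0.38, from -0.71 for Mcm6 to 0 for Pola1 and Cdt1, and 10 of the 12 were lower. The 16 other members with a window and past the filter had a median of -0.34, from -1.14 for Rrm2 to 0 for Cdc45, and 15 of the 16 were lower. Beside these counts, 36.8% of all genes were lower on palmitate than on oleate. Between elaidate and oleate the medians were -0.09 and 0. A match is a description of these letters only, and no match says only that they are not in this window.

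Among the genes of origin licensing, 3 of the 4 past the filter were lower on palmitate than on oleate and 1 was equal. Over all genes 36.8% were lower and 32.3% equal. Orc1, the subunit of the origin recognition complex whose level changes through the cell cycle, had log2 values of 5.76 on oleate, 5.86 on elaidate and 5.11 on palmitate. It was thus 1.57-fold lower on palmitate than on oleate and 1.69-fold lower than on elaidate. Orc6, the smallest subunit, had 7.97, 7.97 and 7.91, so its 3 arrays almost coincided. Cdc6, the ATPase that helps load the helicase, stood at 5.94 on both the oleate and the elaidate array and at 5.52 on palmitate, a difference of -0.41.

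Cdt1, the partner of CDC6 in loading, had 8.91 on oleate, 8.77 on elaidate and 8.91 on palmitate. It was the 1 member past the filter with its lowest value on the elaidate array alone. Gmnn, the inhibitor of CDT1, was measured by 2 probe sets that disagreed in level. The brighter had 5.23, 5.23 and 4.88 on oleate, elaidate and palmitate, a palmitate minus oleate difference of -0.35, and the dimmer had 2.39 on all 3 arrays. Their mean, 3.81 on oleate, is below the filter, so Gmnn enters no count. The median of the 4 other licensing genes was -0.24 for palmitate minus oleate, and -0.07 without Orc1.

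The genes of the replicative helicase were lower on palmitate than on oleate as a group. Of 9 measured members 8 were lower, beside 36.8% of all genes, and the median was -0.43. All 6 subunits of the MCM2-7 ring were lower, from -0.34 to -0.71, with a mean of -0.53 and an SD over subunits of 0.14. Mcm6 had log2 values of 10.14 on oleate, 10.00 on elaidate and 9.43 on palmitate, 1.63-fold lower on palmitate than on oleate. Mcm7 had 8.97, 8.71 and 8.31, 1.58-fold lower, with the elaidate array between the others. For both genes the palmitate value was the lowest of the 3.

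Mcm5 differed by -0.54, Mcm4 by -0.51, Mcm2 by -0.41 and Mcm3 by -0.34 between palmitate and oleate. In all 6 ring subunits the elaidate value lay between oleate and palmitate. The elaidate minus oleate differences of the ring ran from -0.27 for Mcm7 to -0.05 for Mcm2 and Mcm3, with a mean of -0.13, which no test could be set beside. All genes had 24.3% lower in that comparison, and 10% of them differed by -0.09 or lower.

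The genes that complete or activate the helicase went from a difference like that of the ring to none. Gins1, a subunit of the GINS complex, had 8.61, 8.65 and 8.17 on oleate, elaidate and palmitate, a palmitate minus oleate difference of -0.43. Mcm10, which helps start unwinding, had 8.21, 8.18 and 7.98, a difference of -0.24. Cdc45, the remaining part of the active helicase, had 7.10 on all 3 arrays. It was the 1 measured member of the helicase class that was not lower on palmitate.

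No polymerase or primase gene passed 1.5-fold. Between palmitate and oleate 5 of 6 were lower, beside 36.8% of all genes, and the median was -0.13. Between palmitate and elaidate the median was -0.05, with a mean of -0.16. Prim1, the catalytic subunit of primase, had 7.90 on oleate, 8.06 on elaidate and 7.57 on palmitate. Its elaidate minus oleate difference of 0.16 was the highest of the members, and it was 1.41-fold lower on palmitate than on elaidate. Prim2, the partner subunit that helps hand the primer on, had 8.78, 8.78 and 8.77.

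Pola1, the catalytic subunit of polymerase alpha, had 7.44 on all 3 arrays. Pole, the catalytic subunit of the leading-strand polymerase epsilon, differed by -0.08 between palmitate and oleate, and its second subunit Pole2 by -0.33. Pold1, the catalytic subunit of the lagging-strand polymerase delta, had 8.06 on oleate, 7.89 on elaidate and 7.88 on palmitate. Pold1 was thus lower to the same extent on both the elaidate and the palmitate array, at -0.18 each. The large catalytic subunits Pola1, Pole and Pold1 all lay within 0.18 of oleate on the palmitate array.

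In the group of clamp, clamp loader and single-strand binding genes, 1 gene stood away from the rest. Rpa2, a subunit of the protein that coats single-stranded DNA, had 8.11 on oleate, 8.02 on elaidate and 7.38 on palmitate, 1.65-fold lower on palmitate than on oleate. Rpa1, the large subunit of the same protein, had 7.28, 7.28 and 7.08, a difference of -0.20. Rfc3, a clamp loader subunit, had 7.61, 7.53 and 7.53, the smallest difference of the group at -0.07. Rfc5, another loader subunit, differed by -0.13.

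Pcna, the sliding clamp, had 11.36 on oleate, 11.49 on elaidate and 11.23 on palmitate. Its 2 probe sets gave the same palmitate minus oleate difference, -0.13, and cite the same transcript, so they are not independent readings. Pcna was highest on elaidate, by 0.13 over oleate. The median of the 5 measured genes was -0.13 for palmitate minus oleate, and their mean, which Rpa2 moves, was -0.25.

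Okazaki fragments are joined by the flap nuclease FEN1 and the ligase LIG1. Lig1 had 8.38 on oleate, 8.28 on elaidate and 7.81 on palmitate, 1.48-fold lower on palmitate than on oleate. Fen1 was measured by 2 probe sets of unlike brightness, the brighter with 8.20, 8.02 and 7.57 and the dimmer with 4.80 on both oleate and elaidate and 4.596 on palmitate. Their palmitate minus oleate differences were -0.64 and -0.20, and the gene mean was -0.42. On each probe set of both genes palmitate was the lowest array. The 2 Fen1 probe sets cite the same transcript, so they are not independent readings.

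The nucleotide supply genes had the lowest median of the 7 classes, -0.74 against oleate and -0.66 against elaidate on the palmitate array, over 4 genes. Without Rrm2 the first was -0.61. Rrm2, the small subunit of ribonucleotide reductase, which is made in S phase and sets the enzyme's activity, had 9.55 on oleate, 9.60 on elaidate and 8.41 on palmitate. It was 2.21-fold lower on palmitate than on oleate and 2.29-fold lower than on elaidate, and 0.84% of all genes past the filter were as low in the first of these. Rrm1, the large subunit, had 9.82, 9.83 and 9.21, 1.52-fold lower on palmitate than on oleate. Each subunit differed by at most 0.05 between the oleate and the elaidate array.

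Tk1, the thymidine kinase of dividing cells, had 8.79 on oleate, 8.62 on elaidate and 7.91 on palmitate, 1.84-fold lower on palmitate than on oleate. Its 2 probe sets differed in size but not in the order of palmitate below the others: -0.64 on one, with 8.91, 8.91 and 8.28, and -1.12 on the other, with 8.67, 8.33 and 7.55. Both probe sets cite the same transcript, so they are not independent readings. With the brighter probe set alone the Tk1 difference between elaidate and oleate is 0, in place of -0.17. Dut, which keeps uracil out of DNA by breaking down dUTP, had 6.67, 6.67 and 6.45, a difference of -0.22.

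Chromatin assembly factor 1 places histones on newly copied DNA. Its large subunit gene Chaf1a had 7.10 on oleate, 7.09 on elaidate and 6.36 on palmitate, 1.67-fold lower on palmitate than on oleate. Its second subunit gene Chaf1b had 7.08, 7.08 and 6.74, a difference of -0.35. For both genes oleate and elaidate differed by at most 0.01.

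**Figure D3:**
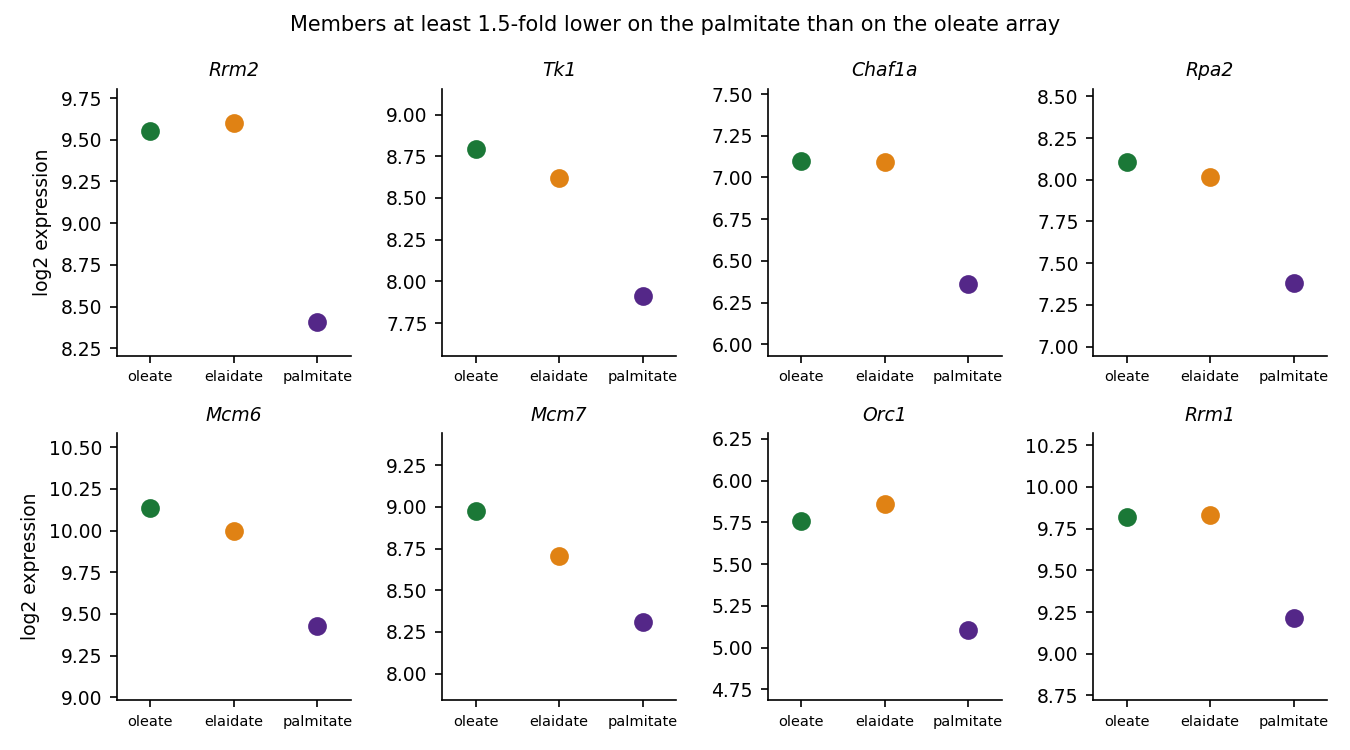
Log2 expression values on the oleate, elaidate and palmitate arrays for the 8 members at least 1.5-fold lower on palmitate than on oleate, 1 point per array, each panel spanning the same range of log2 units around its own middle. In all 8 the palmitate point is lowest; oleate and elaidate lie within 0.27 of each other, with elaidate below oleate for Mcm7 and above it for Orc1.

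Members just past and just short of the 1.5-fold limit (a log2 difference of 0.58) between palmitate and oleate lay close together. Rrm1 at -0.61 was the nearest inside, and Lig1 at -0.56 the nearest outside. Tk1 at -0.88, the mean of its probe sets, was the nearest to the 2-fold limit from outside. Its brighter probe set stood at -0.64 and its dimmer at -1.12, which is past the 2-fold limit. The 8 inside came from 5 of the 7 classes, with none from the polymerases and, with the probe sets of a gene averaged, none from Okazaki fragment maturation. With the brighter probe set alone Fen1 stood at -0.64, inside the limit, and the count was 9.

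Subunits of the same complex differed in the comparison of palmitate with oleate. The subunits that are no members came from the list of other replication genes and were picked out by complex after their values were seen. In the origin recognition complex, Orc1 at -0.65 stood opposite Orc4 at 0.85, while Orc2 stood at 0.15, Orc3 at 0.04, Orc5 at 0 and Orc6 at -0.07. Orc4 had 7.004 on oleate, 7.35 on elaidate and 7.85 on palmitate. The 6 subunits thus spanned 1.501 log2 units, beside 0.36 for the 6 of the MCM2-7 ring.

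Replication factor C held Rfc2 at -0.65 and Rfc1 at -0.28 beside the members Rfc3 and Rfc5. In the single-strand binding protein Rpa3 stood at 0 beside Rpa2 at -0.72. Pola2, the accessory subunit of polymerase alpha, stood at -0.50 beside Pola1 at 0. In GINS, Gins3 at -0.19 and Gins4 at -0.24 were lower, as was Gins1. The reductase subunit Rrm2b, known for supplying precursors outside S phase, was equal on oleate and palmitate and 0.22 higher on elaidate than on oleate.

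**Figure D4:**
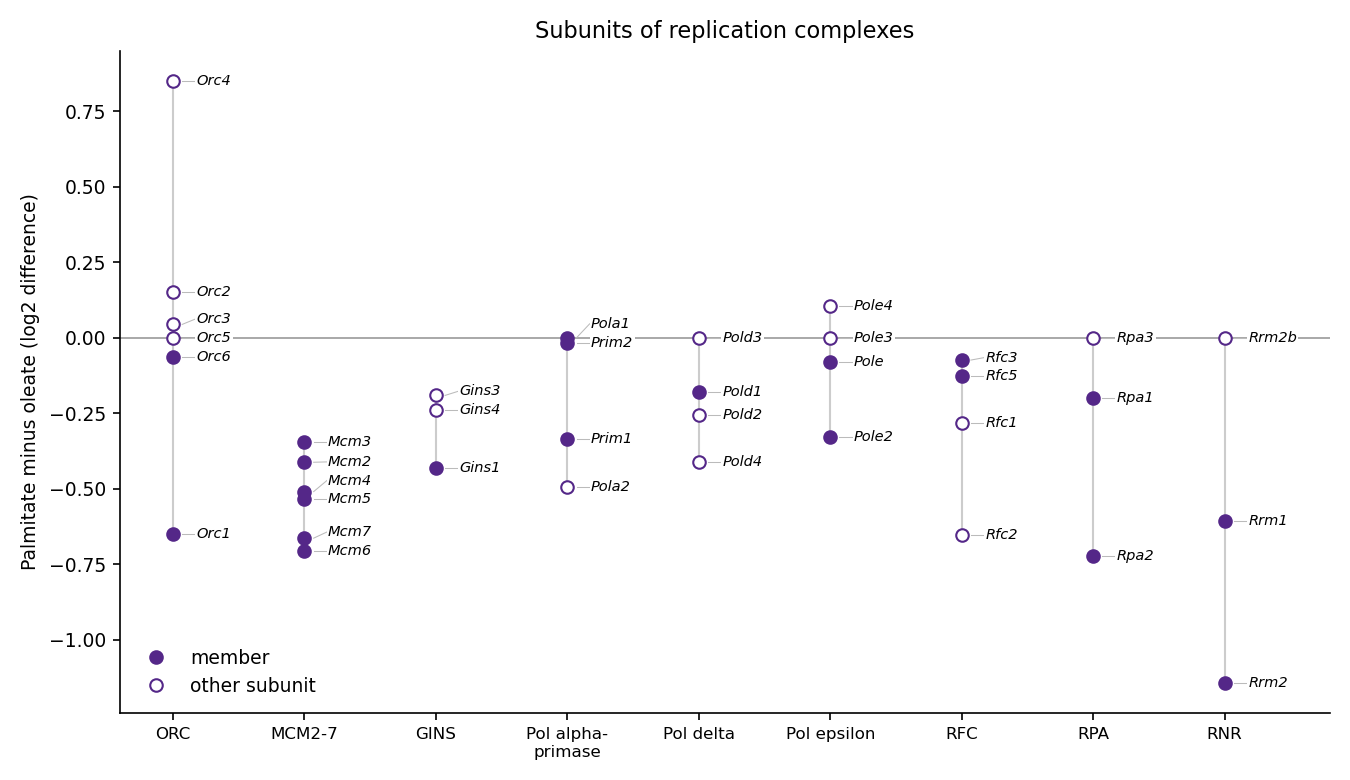
Palmitate minus oleate difference (log2) for subunits of 9 replication complexes, with members as filled and other subunits as open points, 1 array per fatty acid. The MCM2-7 subunits lie together between -0.34 and -0.71, and the origin recognition complex runs from Orc1 at -0.65 to Orc4 at 0.85.

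The lists of other replication genes, also chosen with earlier results of these data known, gave the following counts. Of 59 measured, all past the filter, 39 were lower on palmitate than on oleate, 9 higher and 11 equal, with a median of -0.13. Over all genes 36.8% were lower and 30.9% higher. At least 2-fold lower were 3, all of the fork: the nuclease and helicase gene Dna2 at -1.18, the fork scaffold gene Wdhd1 at -1.12 and Clspn, which encodes the checkpoint mediator claspin, at -1.07. The background for that limit is 1.22% of all genes. At least 1.5-fold lower were 8 of the 59 and 1.5-fold higher 2, against 4.73% and 4.57% of all genes. Mtbp, whose product takes part in origin firing, was the 1 gene at least 2-fold higher, at 1.43, with 1.65% of all genes as background. Between palmitate and elaidate, 43 of the 59 were lower, 8 higher and 8 equal, beside 37.9% of all genes lower and 27.9% higher. Past 2-fold were Wdhd1 at -1.12 and Mtbp at 1.04, against 0.871% of all genes lower and 0.978% higher. At 1.5-fold 8 were lower and 1 higher, against 4.43% and 3.18%. No gene of the 59 passed 1.5-fold between elaidate and oleate, which 0.0638% of all genes did downward and 0.723% upward.

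By class, the other origin and helicase genes had a median of 0 between palmitate and oleate, the other fork genes -0.26, the other nucleotide supply genes -0.09 and the other replication chromatin genes -0.20. Of the 15 other nucleotide supply genes 11 were lower, led by Dtymk, the kinase that follows TK1 in making dTTP, at -0.97, and Cad, which begins pyrimidine synthesis, at -0.61; the highest was Tk2 at 0.01, followed by 3 genes at 0. Of the 7 other replication chromatin genes 6 were lower, with the histone chaperone gene Asf1b at -0.68 and Uhrf1 at -0.49 the lowest and Asf1a at 0.31 and Hells at -0.07 the highest. Beside these counts, 36.8% of all genes were lower. The list of other origin and helicase genes holds both kinds together. Its median of 0 stood beside -0.24 for the member licensing class and -0.43 for the member helicase class. The absence of replicates leaves these differences without a test.

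Other cell cycle lists gave their own values in the comparison of palmitate with oleate. For scale, 36.8% of all genes were lower and 30.9% higher. Mitosis genes were lower for 16 of 20, higher for 2 and equal for 2, with a median of -0.08. Past 1.5-fold was 1 of the 20, Aurkb at -0.67, a share near the 4.73% of all genes; the list's next lowest was Plk1 at -0.50. In the E2F and G1 list 16 of 21 were lower, 2 higher and 3 equal, and the median was -0.31. Past 2-fold were 5 genes: Ccnd3 at -1.88, Ccnd1 at -1.83, Ccne1 at -1.56, E2f8 at -1.53 and Cdkn2c at -1.04. At 1.5-fold 9 of the 21 were lower and none higher, with backgrounds of 1.22% lower at 2-fold and, at 1.5-fold, 4.73% lower and 4.57% higher. The highest mitosis genes were Ndc80 at 0.03 and Cenpe at 0.01. The members' median of -0.35 lay below that of the mitosis list and near the -0.31 of the E2F and G1 list. The mean was -0.38 for the members and -0.57 for the E2F and G1 list. The differences between lists were not tested.

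Macrophage markers were also lower on palmitate: 8 of 10 were lower on palmitate than on oleate and 2 equal, with a median of -0.33. Over all genes 36.8% were lower and 32.3% equal. The lowest were Lyz2 at -0.83 and Adgre1 at -0.66, the 2 of the 10 past 1.5-fold (4.73% of all genes), and Cd68 and Ptprc stood at 0. The mean log2 value of the 10 was 10.30 on oleate, 10.23 on elaidate and 9.98 on palmitate. Their part in the members' difference was not tested. The reference genes had mean log2 values of 10.69 on oleate, 10.71 on elaidate and 10.67 on palmitate, while single genes ran from Gusb at -0.37 to Tbp at 0.31 between palmitate and oleate, and centring on them left the members' median between palmitate and oleate at -0.33. In RNA from whole cultures, fewer cells in S phase and less RNA of these genes per cell cannot be told apart, and with 1 culture per fatty acid a difference between cultures cannot be told apart from one between fatty acids.

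**Figure D5:**
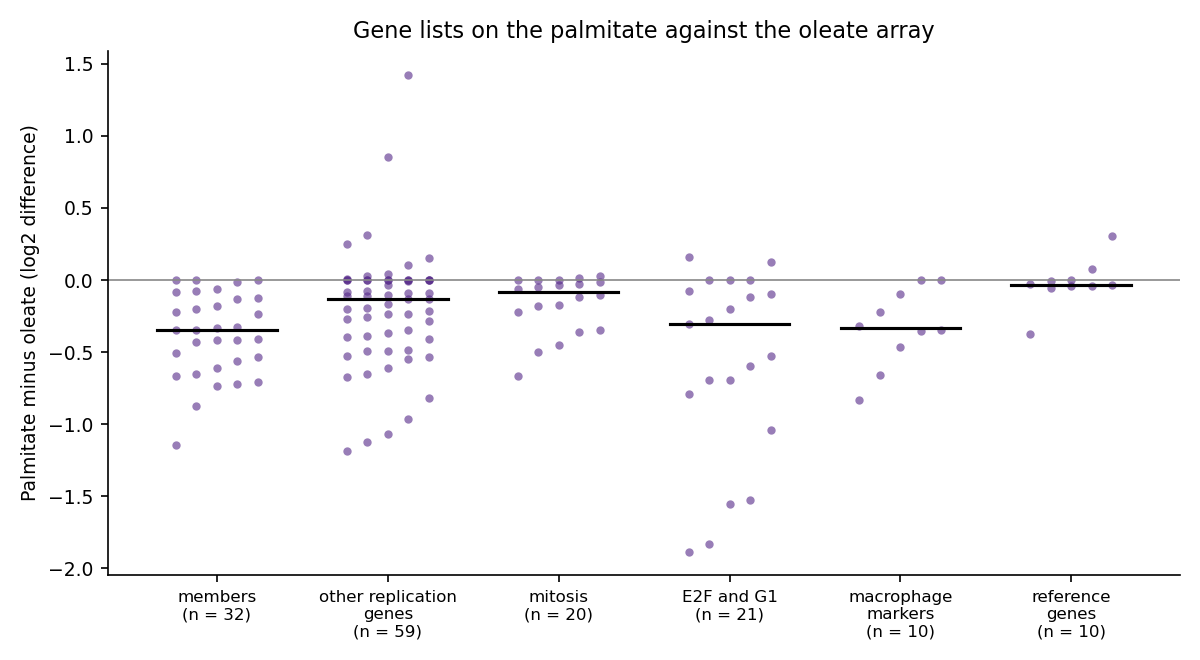
Palmitate minus oleate difference (log2) of each gene past the filter in the 32 members, the 59 other replication genes, 20 mitosis genes, 21 E2F and G1 genes, 10 macrophage markers and 10 reference genes; points are genes and bars are medians. The medians are -0.35, -0.13, -0.08, -0.31, -0.33 and -0.03 in that order, and no member point lies above 0 as deposited.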

How the data were processed

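Total RNA of 1 culture per fatty acid was hybridised to 1 whole-transcript array each, 3 in all. Each deposited value is the log2 expression of a probe set, which, per the submitters' processing notes, the authors obtained by RMA (version: not given in the sources used). RMA corrects background, equalises distributions and summarises probes by median polish. Arrays have no depth, and their number limits precision.

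Gene names came from the platform annotation, updated by gene identifier through RefSeq: of 35556, 21218 had 1 gene symbol, 1881 several and 12457 none there. Probe sets of a gene were averaged. Differences of log2 values were counted at 2-fold and 1.5-fold; values within 1e-06 were equal. The counting steps were tested on simulated data. Members, classes and lists were chosen with earlier results of these data known. All members are named; from the other replication and cell cycle lists, genes past 2-fold, otherwise the 2 lowest and 2 highest; the subunits, Rrm2b and the marker and reference genes given with values were added after their values were seen. Alternatives covered filters, scalings (limma 3.58.1, R 4.3.3, loess span 0.7, 3 iterations), probe set choice and summaries. Python 3.11.15, numpy 2.4.6, pandas 2.3.3 and matplotlib 3.10.9 were used.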

Additional observations from a re-analysis of the deposited data

How the results depend on the processing

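No paired analysis was possible because each fatty acid has 1 array, and for the same reason no replicate could be left out. The members' medians and their counts past 2-fold and 1.5-fold stayed within 0.1 log2 or 1.5 times under all alternatives run. Members lower on elaidate than on oleate numbered 26 with the arrays centred on the reference genes. For the licensing genes (palmitate minus oleate) the median was -0.033 with the filter at the 75th percentile, -0.35 with the brightest probe set and -0.065 without the member furthest from 0; for palmitate minus elaidate these were 0.035, a reversed sign over the few genes left, -0.35 and -0.065. For palmitate minus oleate, the nucleotide supply median was -0.88 with the 75th percentile filter, -0.62 with the brightest probe set and -0.61 without Rrm2; that of Okazaki fragment genes was -0.60 with the brightest probe set; and the mean of the clamp and loader genes was -0.25. The mean of the polymerase genes for palmitate minus elaidate was -0.16. Without Chaf1a the chromatin assembly value was -0.35 in both comparisons with palmitate. Classes of 2 to 9 genes limit these medians.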
